A study of Mus musculus with 9 samples.

Results

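The nuclear-encoded subunits of the mitochondrial respiratory chain and ATP synthase, with 8 assembly factors of complex I, were followed through 3 groups of sorted mouse bone marrow cells. Members were the genes whose platform symbol starts with Nduf, Uqcr, Atp5 or Cox4 to Cox8, and Sdha, Sdhb, Sdhc and Sdhd, measured by a probe set (a group of short probes read as 1 value) that carries that symbol alone. Each gene was represented by its probe set with the highest mean over the 9 arrays. The rule found 90 of the 18193 genes measured. Of these, 42 belong to complex I, 4 to complex II, 8 to complex III, 19 to complex IV and 17 to ATP synthase (complex V). A further 8 names appear only on probe sets shared by several symbols and were not analysed here (Ndufa11, Ndufa11b, Ndufab1-ps, Ndufb4b, Ndufb4c, Ndufs5-ps, Ndufs6 and Ndufs6b).

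The groups were LSK cells (lineage negative, Sca1+ and cKit+, a fraction that holds stem and multipotent progenitor cells) and granulocyte-macrophage progenitors (GMP, which express CD34 and FcgammaRII/III but not Sca1) from WT mice, and GMP from NcstnKO mice. Each group had 3 arrays. WT mice carried Ncstn flox/flox, and NcstnKO mice carried Ncstn flox/flox with Mx1-cre+, a Cre recombinase driven by an interferon-responsive promoter that acts in many cell types. Ncstn encodes nicastrin, a subunit of the gamma-secretase complex that cleaves Notch receptors. All mice were littermates that received 3 injections of polyIC (20 mcg per g of body weight) from 14 days of age, were taken 4 weeks later and are labelled as 6 weeks old. The control mice carried no Cre, so loss of Ncstn and presence of Cre cannot be told apart. No NcstnKO LSK array was analysed here, so the 2 genotypes are compared in GMP only.

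The respiratory chain passes electrons from NADH (complex I) and succinate (complex II) through complex III to oxygen at complex IV, and complexes I, III and IV pump protons across the inner membrane. ATP synthase uses the return of these protons to make ATP. Each of these complexes except complex II combines subunits encoded in mitochondrial DNA, which are not members here, with subunits encoded in the nucleus. The nuclear subunits fall into conserved core subunits, which carry catalytic centres or form the main body of a complex, and small accessory subunits, which are needed for assembly and stability. Cox4i1, Cox5a and Cox5b were counted as core for complex IV, though its catalytic centres lie in subunits encoded in mitochondrial DNA. Long-lived haematopoietic stem cells are known for relying less on oxidative phosphorylation than dividing progenitors do.

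Values are the authors' deposited intensities on a log2 scale. Differences came from limma fitted over all 18193 genes, with 6 residual degrees of freedom, and a gene was called changed at a Benjamini-Hochberg adjusted p under 0.05. Every adjusted p below is from that fit, and each ± after a difference is its SE. The labels do not say whether the arrays of a group came from separate mice, so p-values measure the spread between these arrays. RNA from a sorted population does not distinguish fewer cells of a type from less RNA per cell.

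Facts of the whole series bear on each result. LSK arrays were brighter at the median (98.3 to 103) than the 6 GMP arrays (65.4 to 68.6), and the median difference over all genes between WT GMP and LSK was -0.18. Changes are therefore given beside this shift. Ncstn was lower in the NcstnKO arrays (7.76 to 7.79) than in the WT GMP arrays (9.25 to 9.31). Sex-linked transcripts went against the labelled sex in 4 arrays, namely WT GMP 2 and 3 and NcstnKO GMP 2 and 3. By these transcripts 1 of 3 LSK arrays, 1 of 3 WT GMP arrays and 3 of 3 NcstnKO arrays were female. The log2 ratio of 3′ to 5′ Actb probe sets, a sign of RNA integrity, was 0.663 to 0.870 in LSK, 0.500 to 0.705 in WT GMP and 0.809 to 1.06 in NcstnKO GMP. Stem cell markers were lower in WT GMP than in LSK for 10 of 10 measured genes (summed intensity 27824 to 32888 in LSK and 8853 to 10764 in WT GMP), and GMP granule markers were higher for 9 of 10 (41842 to 51180 and 80883 to 81782).

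Markers of other cells were also counted between LSK and WT GMP, where 30.5% of all genes were lower and 7.48% higher. Late neutrophil markers were lower for 9 of 9, with a summed intensity of 73604 to 96743 in LSK and 35101 to 46848 in WT GMP. Lymphoid and B cell markers were lower for 8 of 9 (14539 to 19711 and 4034 to 5388), with 1 of them at background in WT GMP. Erythroid markers were lower for 4 of 11 (42004 to 50784 and 21926 to 35234, with 1 at background in each group), megakaryocyte markers for 4 of 6 (5585 to 6892 and 3737 to 5912) and macrophage markers for 2 of 6 (2600 to 3408 and 2708 to 3504). The erythroid and macrophage counts lie near the share of all genes, and the megakaryocyte and macrophage sums overlapped. Eosinophil, basophil and mast cell markers were higher for 6 of 7 (10234 to 15719 and 35612 to 43573). In NcstnKO GMP against LSK the counts were 6 of 9 late neutrophil, 9 of 9 lymphoid, 9 of 11 erythroid, 4 of 6 megakaryocyte and 3 of 6 macrophage markers lower, and 6 of 7 eosinophil, basophil and mast cell markers higher. Of all genes, 32.3% were lower and 14.6% higher there. The part of these cells in the differences between GMP and LSK was not tested.

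Most of the respiratory chain did not pass the test between WT GMP and LSK. Of the 90 members, 11 rose (12.2%, against 7.48% of all genes) and 3 fell (3.33%, against 30.5% of all genes). The median difference of the members was 0.09, against -0.18 for all genes, and 82 of the 90 members lay above the median of all genes. All 3 WT GMP arrays lay above all 3 LSK arrays for 36 members (40%, against 13.2% of all genes), and below them for 6 (6.67%, against 41.5%). After quantile normalization the share called higher was 16.7%, below the 19.8% of all genes, so the excess of rises depends on the scaling of the arrays.

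Ndufb1, a small membrane-arm accessory subunit of complex I, had the largest rise. Its log2 intensity was 7.17, 7.15 and 7.43 in the LSK arrays, 7.92, 8.0 and 7.88 in the WT GMP arrays, and 8.18, 8.11 and 8.62 in the NcstnKO GMP arrays. No array of 1 group overlapped another group. The WT GMP rise was 0.68 ± 0.14 (1.60-fold, adjusted p = 0.0064). Uqcrq, an accessory subunit of complex III, was at 10.97, 11.20 and 11.18 in LSK, 11.77, 11.81 and 11.59 in WT GMP, and 12.11, 12.01 and 12.37 in NcstnKO GMP. The 3 groups were again apart, with WT GMP 0.61 ± 0.12 above LSK (1.52-fold, adjusted p = 0.00504). This value belongs to the brightest probe set of Uqcrq. A second probe set, with a mean of 6.95, differed by -1.07 ± 0.36 in the same comparison, and the mean over all Uqcrq probe sets by -0.21.

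Ndufaf8, an assembly factor that in human cells stabilises the factor Ndufaf5, was the only member called higher in all 3 comparisons. It lay at 11.19, 11.17 and 11.13 in LSK, 11.67, 11.67 and 11.65 in WT GMP, and 11.97, 12.17 and 11.98 in NcstnKO GMP. The replicates of each group were close and the groups did not overlap. WT GMP exceeded LSK by 0.50 ± 0.08 (1.42-fold, adjusted p = 0.00176), and the second probe set of Ndufaf8, a dimmer one, also gave 0.50 ± 0.08. Ndufa1, a single-pass accessory subunit of complex I, was at 11.50, 11.78 and 11.89 in LSK and 12.19, 12.15 and 12.19 in WT GMP. The rise was 0.45 ± 0.11 (adjusted p = 0.0107). Its gene lies on chromosome X, and the lowest LSK value is that of the 1 LSK array that was female by its transcripts. In WT GMP the female array, at 12.19, lay between the other arrays, and the 3 NcstnKO arrays, all female, were highest at 12.35 to 12.48. The part of sex in these values was not tested. Ndufs5, an accessory subunit facing the intermembrane space, was at 10.86, 11.10 and 11.03 in LSK and 11.39, 11.44 and 11.41 in WT GMP, a rise of 0.42 ± 0.09 (adjusted p = 0.00815).

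Sdhd, a membrane anchor of succinate dehydrogenase, was at 11.52, 11.57 and 11.67 in LSK and 11.94, 11.92 and 11.91 in WT GMP, a rise of 0.34 ± 0.08 (adjusted p = 0.00934). The other complex II subunits did not pass the test, with differences of 0.07 for Sdha, -0.07 for Sdhb and 0.13 for Sdhc. Complex IV rose in Cox5a (0.29 ± 0.08, adjusted p = 0.0175), Ndufa4 (0.28 ± 0.07, adjusted p = 0.0181) and Cox4i1 (0.24 ± 0.07, adjusted p = 0.0295), all of them subunits of the common form of cytochrome oxidase. ATP synthase rose in Atp5k and Atp5l, the small subunits e and g of its membrane sector, by 0.31 ± 0.11 (adjusted p = 0.0461) and 0.30 ± 0.09 (adjusted p = 0.0293). With the replicate number as a block, which these 2 groups share, 8 members rose and 2 fell. The adjusted p was then 0.0617 for Atp5k, 0.0521 for Atp5l, 0.0593 for Cox4i1 and 0.0622 for Cox7a1.

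The 3 members that fell all belong to the Cox7 and Cox8 families. Cox7a1, the heart and skeletal muscle isoform of its subunit, was at 5.95, 6.77 and 5.31 in LSK and 4.98, 5.03 and 5.16 in WT GMP, a difference of -0.95 ± 0.31 (adjusted p = 0.0397). The LSK arrays were far apart from each other here. Cox8b, another isoform of muscle and brown fat, was at 5.98, 5.99 and 6.14 in LSK and 5.54, 5.30 and 5.23 in WT GMP, a difference of -0.68 ± 0.11 (adjusted p = 0.00161). Both were dim, with the background limits of the arrays at 4.30 to 4.57. Cox7a2l, a factor that joins complexes III and IV into supercomplexes, was bright, at 12.50, 12.47 and 12.31 in LSK and 12.15, 12.12 and 11.94 in WT GMP. It differed by -0.36 ± 0.10 (adjusted p = 0.0231). All 3 also lay below the median of all genes. Next lowest were Ndufaf7 (-0.31), Cox7c (-0.30), Cox4i2 (-0.30), Ndufaf1 (-0.25) and Cox6a2 (-0.20), none of which passed the test.

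**Figure D1:**
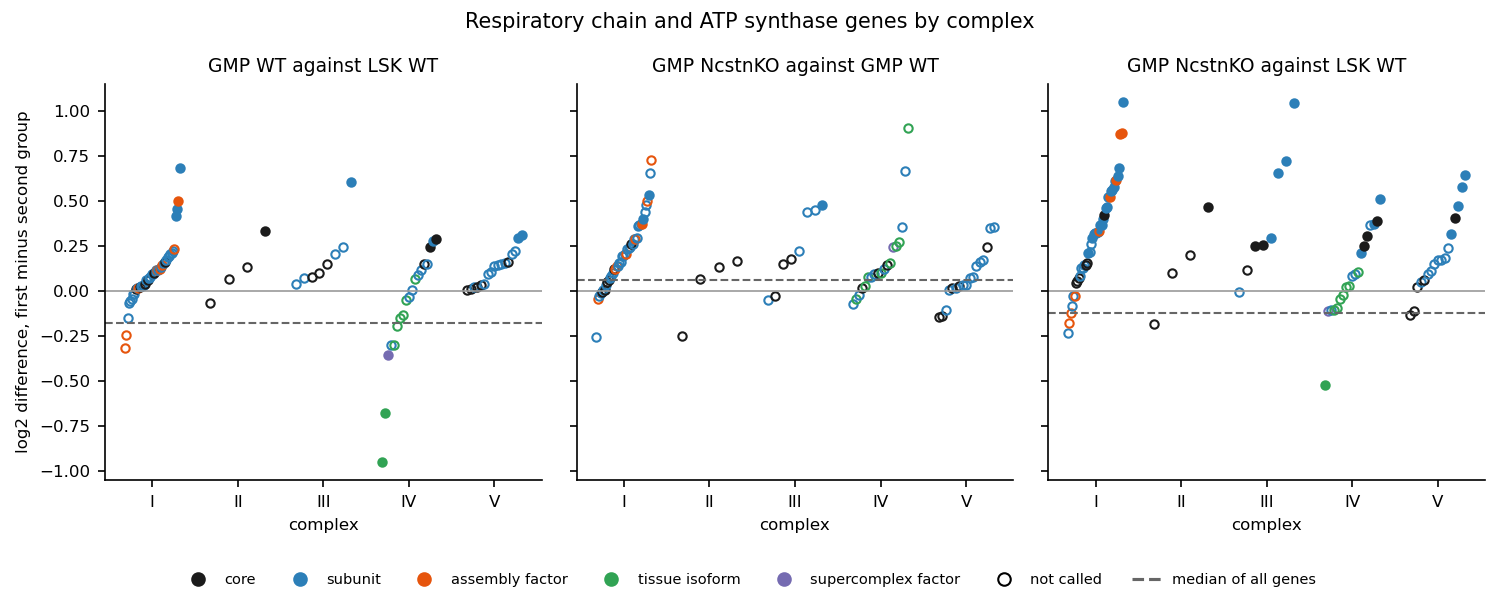
Log2 difference of each of the 90 members (y axis) by complex (x axis) in the 3 comparisons; members are ordered by value within a complex, colours give the role, filled points passed adjusted p under 0.05, and the dashed line is the median of all genes. In NcstnKO GMP against LSK, 42 members were called higher, the highest at 1.05, and 1 was called lower, at -0.52.

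NcstnKO GMP were then compared with WT GMP, the comparison of genotypes within 1 cell type. Of the 90 members, 4 rose (4.44%, against 2.44% of all genes): Ndufa7, Uqcr11, Ndufa2 and Ndufaf8. By limma 0 members fell (against 3.26% of all genes), and 1 member was lower at an unadjusted p under 0.05. In all, 32 members had such a p (35.6%, against 24.4% of all genes), 31 of them higher in NcstnKO. The median difference was 0.14, against 0.06 for all genes, and 64 of the 90 members lay above the median of all genes. All NcstnKO arrays lay above all WT GMP arrays for 48 members (53.3%, against 18.5% of all genes) and below them for 3 (3.33%, against 13.4%).

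Ndufa7, an accessory subunit at the matrix arm of complex I, was at 11.48, 11.65 and 11.47 in WT GMP and 12.02, 11.87 and 12.31 in NcstnKO GMP. LSK, at 11.51, 11.68 and 11.61, overlapped WT GMP. The rise in NcstnKO was 0.54 ± 0.12 (1.45-fold, adjusted p = 0.0432), and all 5 Ndufa7 probe sets gave differences between 0.54 and 0.60. Uqcr11, a small accessory subunit of complex III, was at 11.99, 11.90 and 11.82 in WT GMP and 12.41, 12.24 and 12.49 in NcstnKO GMP. LSK was lower than both, at 11.59, 11.68 and 11.70. The NcstnKO rise was 0.48 ± 0.09 (1.39-fold, adjusted p = 0.0308). Ndufa2, an accessory subunit with a thioredoxin-like fold, was at 12.22, 12.05 and 12.04 in WT GMP and 12.49, 12.49 and 12.54 in NcstnKO GMP, a rise of 0.40 ± 0.08 (1.32-fold, adjusted p = 0.037). Ndufaf8 rose by 0.38 ± 0.08 (1.30-fold, adjusted p = 0.0387), and by 0.43 ± 0.08 on its second probe set.

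These 4 calls rested on a narrow margin. They were all made with quantile normalization and with 75th-percentile centring, under which the list had 4 and 10 rises. The calls numbered 0 when the LSK arrays were left out of the fit, with either sex term, with the Actb ratio as a term, without the 4 arrays that went against their sex label, and without WT GMP 2, WT GMP 3, NcstnKO 1 or NcstnKO 3. In each of these settings the 4 differences kept their sign. Calls were also fewer over all 18193 genes. Those called higher numbered 443 in the main fit, 1 in the fit without LSK and 0 with either sex term or the Actb term. They numbered 0 without WT GMP 3, 67 without WT GMP 2, 186 without NcstnKO 1 and 53 without NcstnKO 3. Without WT GMP 1, LSK 1 or LSK 3 there was 1 call. Without LSK 2 or NcstnKO 2 the whole list had 6 rises. Of the 4, Ndufa2, Ndufaf8 and Uqcr11 were still called without LSK 2, and only Ndufa7 and Uqcr11 without NcstnKO 2.

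Several larger differences did not pass the test. The highest value was that of Cox7a1, at 0.90 ± 0.31 (adjusted p = 0.117), with arrays at 5.94, 5.76 and 6.19 in NcstnKO GMP. Ndufaf6, an assembly factor of complex I, was at 9.16, 9.35 and 9.09 in WT GMP and 10.09, 9.59 and 10.11 in NcstnKO GMP. The 2 groups did not overlap, and the difference was 0.73 ± 0.18 (adjusted p = 0.0541). Cox7c, a subunit of the common form of complex IV, had a difference of 0.67 ± 0.37 (adjusted p = 0.307), with WT GMP spread from 9.20 to 10.53. Ndufb2 differed by 0.65 ± 0.16 (adjusted p = 0.0528), Ndufaf5 by 0.50 ± 0.17 (adjusted p = 0.109) and Ndufs4, an accessory subunit whose loss causes a mouse model of Leigh syndrome, by 0.48 ± 0.15 (adjusted p = 0.0897). Uqcr10 differed by 0.45 ± 0.11 (adjusted p = 0.0552), and its 2 dimmer probe sets by 1.19 ± 0.38 and 1.35 ± 0.40.

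The lowest values in NcstnKO included catalytic subunits. Sdha, the flavoprotein that oxidises succinate, was at 12.40, 12.53 and 12.48 in WT GMP and 12.21, 12.25 and 12.22 in NcstnKO GMP. The groups did not overlap, and the difference was -0.25 ± 0.09 (adjusted p = 0.117). Ndufa10, an accessory subunit of complex I, was at 11.71, 11.93 and 11.90 in WT GMP and 11.42, 11.59 and 11.78 in NcstnKO GMP, which overlapped (-0.25 ± 0.11, adjusted p = 0.206). Atp5b, the catalytic beta subunit of ATP synthase, differed by -0.14 ± 0.08 (adjusted p = 0.296) and Atp5d, the delta subunit of its central stalk, by -0.14 ± 0.07 (adjusted p = 0.259), each with the groups apart. The other 4 of the lowest 8 lay between -0.10 and -0.04, and were Atp5g1, Cox6a1, Uqcrb and Cox6b2.

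Some markers of other cells moved between the GMP groups, where 2.44% of all genes were higher and 3.26% lower. Like those of the members, these calls belong to the main fit. Over all genes, 594 were called lower there, 5 in the fit without LSK, 2 with either sex term and 0 with the Actb term. Of 11 erythroid markers, 6 were lower in NcstnKO GMP, and 1 of the 11 was at background in each group. Their summed intensity was 21926 to 35234 in WT GMP and 12224 to 16216 in NcstnKO GMP. Of 9 late neutrophil markers 1 was higher, with sums of 35101 to 46848 and 50461 to 58298. Of 6 macrophage markers 3 were lower, with overlapping sums of 2708 to 3504 and 2160 to 4453. Of 6 megakaryocyte markers 2 were lower, with sums of 3737 to 5912 and 3268 to 4485. The 10 GMP granule markers had 0 calls by limma and 0 unadjusted p under 0.05, with sums of 80883 to 81782 and 77517 to 84517. The 9 lymphoid and B cell markers and the 10 stem cell markers had 0 calls by limma. So did the 7 eosinophil, basophil and mast cell markers, with sums of 35612 to 43573 and 28900 to 35784. The part of these cells in the values of the respiratory chain genes was not tested.

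**Figure D2:**
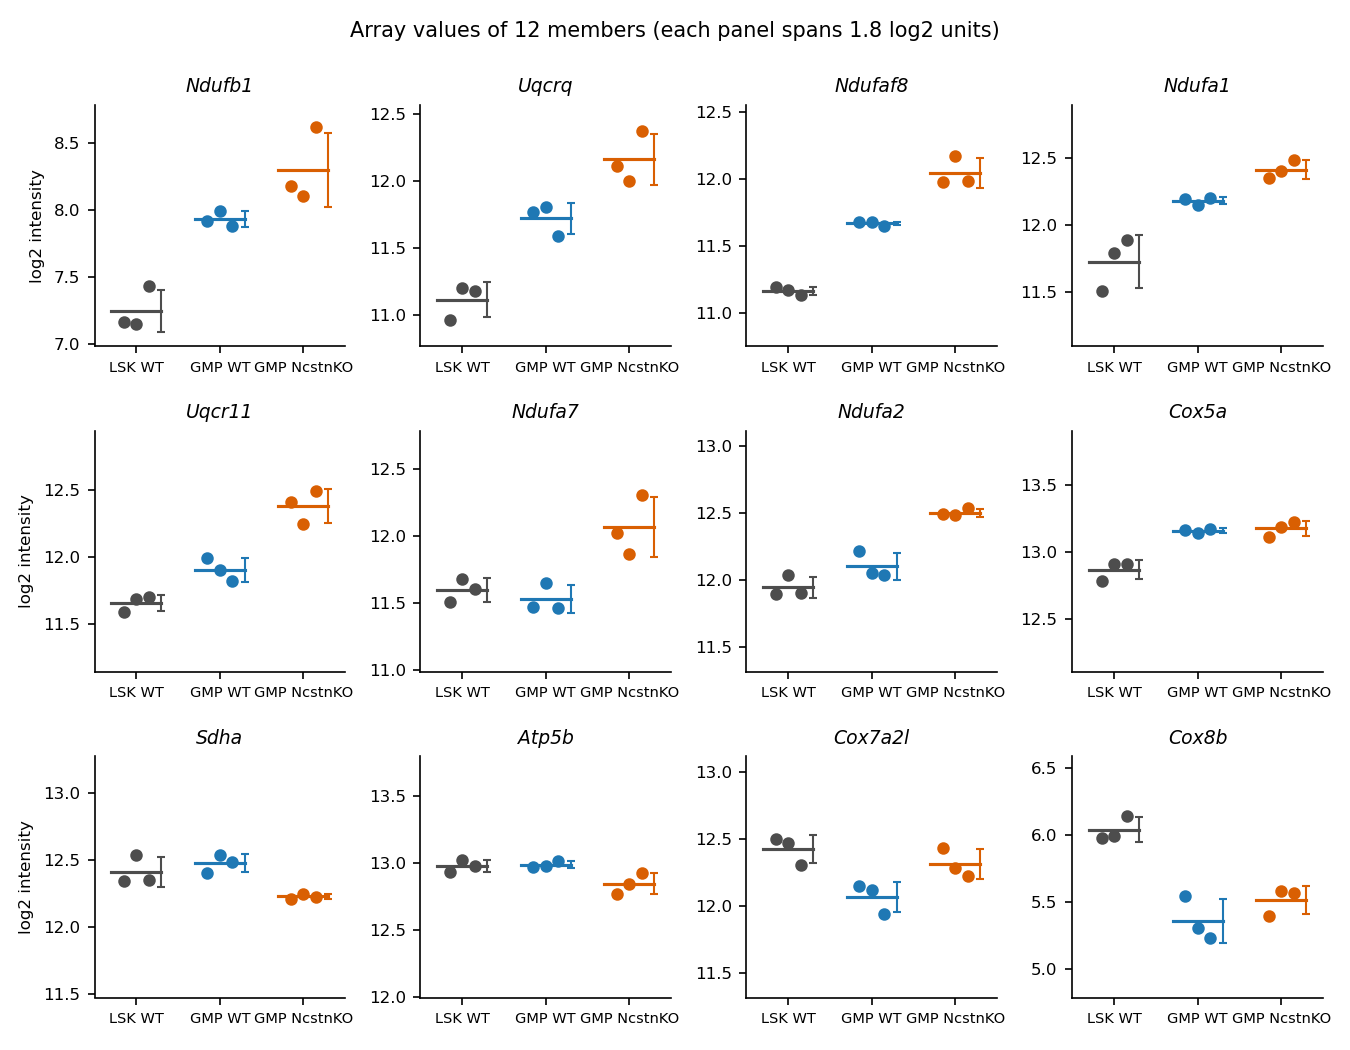
Log2 intensity (y axis) of 12 members in the 3 arrays of each group (points), with the group mean (horizontal line) and SD (bar, n = 3); every panel spans 1.8 log2 units, so slopes compare between panels but levels do not. Ndufb1, Uqcrq and Ndufaf8 step up from LSK to WT GMP to NcstnKO GMP with no overlap, while Sdha and Atp5b lie lowest in NcstnKO GMP.

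NcstnKO GMP stood farther from LSK than WT GMP did in most members, and this comparison had the most calls. It shares its LSK arrays with the first comparison and its NcstnKO arrays with the second, so it is not separate evidence. Of the 90 members, 42 rose (46.7%, against 14.6% of all genes) and 1 fell, Cox8b (1.11%, against 32.3% of all genes). The median difference was 0.21, against -0.12 for all genes, and 85 of 90 members lay above the median of all genes. All NcstnKO arrays lay above all LSK arrays for 56 members (62.2%, against 19.2% of all genes) and below them for 5 (5.56%, against 37.2%).

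Complex I gave 24 of the 42 rises, from its 42 members. They were the assembly factors Ndufaf4, Ndufaf5, Ndufaf6 and Ndufaf8, the core subunit Ndufv2, and the accessory subunits Ndufa1, Ndufa2, Ndufa3, Ndufa5, Ndufa6, Ndufa7, Ndufa8, Ndufb1, Ndufb2, Ndufb3, Ndufb6, Ndufb7, Ndufb8, Ndufb9, Ndufb10, Ndufc1, Ndufc2, Ndufs4 and Ndufs5. Ndufb1 rose by 1.05 ± 0.14 (2.07-fold, adjusted p = 0.00052), Ndufaf8 by 0.88 ± 0.08 (1.84-fold, adjusted p = 7.9e-05) and Ndufaf6 by 0.87 ± 0.18 (1.83-fold, adjusted p = 0.00452). Ndufa1 rose by 0.69 ± 0.11 (adjusted p = 0.00101). The 4 assembly factors that were not called had differences of -0.18 (Ndufaf7), -0.12 (Ndufaf1), -0.03 (Ndufaf2) and 0.33 (Ndufaf3). Ndufa10 was the lowest subunit of the complex, at -0.24 ± 0.11.

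Complex III rose in 6 of 8 members. Uqcrq rose by 1.05 ± 0.12 (2.07-fold, adjusted p = 0.000227), Uqcr11 by 0.72 ± 0.09 (1.65-fold, adjusted p = 0.000404) and Uqcr10 by 0.66 ± 0.11 (adjusted p = 0.00172). Uqcrh, the hinge protein that helps cytochrome c bind, rose by 0.30 ± 0.07 (adjusted p = 0.00891). The core subunits Uqcrc2 and the Rieske iron-sulfur protein Uqcrfs1 rose by 0.26 ± 0.08 and 0.25 ± 0.09, and Uqcrc1, at 0.12, was not called. Complex II rose in Sdhd alone (0.47 ± 0.08, adjusted p = 0.00132), and Sdha stood at -0.18 ± 0.09 (adjusted p = 0.109).

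Complex IV rose in 6 of 19 members, and none of the 6 was a tissue isoform. They were Cox6c (0.51 ± 0.10, adjusted p = 0.00389), Cox4i1 (0.39 ± 0.07), Ndufa4 (0.37 ± 0.07), Cox5a (0.31 ± 0.08), Cox5b (0.25 ± 0.07) and Cox6b1 (0.21 ± 0.08, adjusted p = 0.0495). Cox8b fell by 0.52 ± 0.11 (adjusted p = 0.00405), with arrays at 5.40, 5.58 and 5.56 in NcstnKO GMP, all below the LSK arrays. ATP synthase rose in 5 of 17 members. Atp5l was at 11.98, 12.11 and 12.17 in LSK, 12.45, 12.38 and 12.32 in WT GMP and 12.70, 12.66 and 12.84 in NcstnKO GMP, and rose by 0.65 ± 0.09 (1.57-fold, adjusted p = 0.000543). Atp5md, a small subunit of the membrane sector, rose by 0.58 ± 0.09, Atp5k by 0.47 ± 0.11, Atp5e, the epsilon subunit of the stalk, by 0.40 ± 0.08 and Atp5mpl by 0.32 ± 0.08. The F1 subunits Atp5a1, Atp5b, Atp5c1 and Atp5d had differences of 0.06, -0.13, 0.02 and -0.11 and were not called.

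Taken over all complexes, the accessory subunits had a higher median difference than the core subunits in every comparison. The 21 core subunits had medians of 0.08 (WT GMP against LSK), 0.06 (NcstnKO against WT GMP) and 0.15 (NcstnKO GMP against LSK). The 52 accessory subunits had medians of 0.12, 0.17 and 0.32. Complexes I, III and V had this order in each comparison. Within complex IV it was the other way, with core medians of 0.245, 0.0979 and 0.309 and accessory medians of 0.0879, 0.0930 and 0.212. In WT GMP against LSK, rises numbered 3 of the 21 core subunits (14.3%) and 7 of the 52 accessory subunits (13.5%). Of these 3 core rises, 2 were Cox4i1 and Cox5a, so the near-equal shares depend on counting those subunits as core. Rises numbered 0 of 21 and 3 of 52 (5.77%) in NcstnKO against WT GMP, and 8 of 21 (38.1%) and 30 of 52 (57.7%) in NcstnKO GMP against LSK. Cox4i1, Cox5a and Cox5b gave 3 of the 8 core rises in the last comparison. Core subunits with values near 0 in all 3 comparisons included Ndufs1 (0.04, 0.00 and 0.05), Ndufv1 (0.06, -0.01 and 0.06) and Atp5c1 (0.01, 0.02 and 0.02). Ndufs3, Ndufs7 and Ndufs8, which hold or neighbour the quinone end of complex I, reached at most 0.16. With 75th-percentile centring all 21 core subunits were called higher in WT GMP against LSK, so values near 0 there hold for the deposited scale and for quantile normalization, where 3 of the 21 rose. The class medians kept their order under both scalings, at 0.08 and 0.12 with quantile normalization and 0.43 and 0.46 with centring in that comparison. The difference between the classes was not tested, since genes measured on the same arrays are not replicates.

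Differences also varied with signal strength. For NcstnKO GMP against LSK, the 20 members with a mean log2 intensity of 13 or more had a median difference of 0.16 with 8 called higher, the 39 members from 12 to 13 a median of 0.26 with 20 called, the 16 from 11 to 12 a median of 0.47 with 11 called, and the 15 below 11 a median of 0.03 with 3 called. The part of signal strength in the contrast of core and accessory subunits was not tested.

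**Figure D3:**
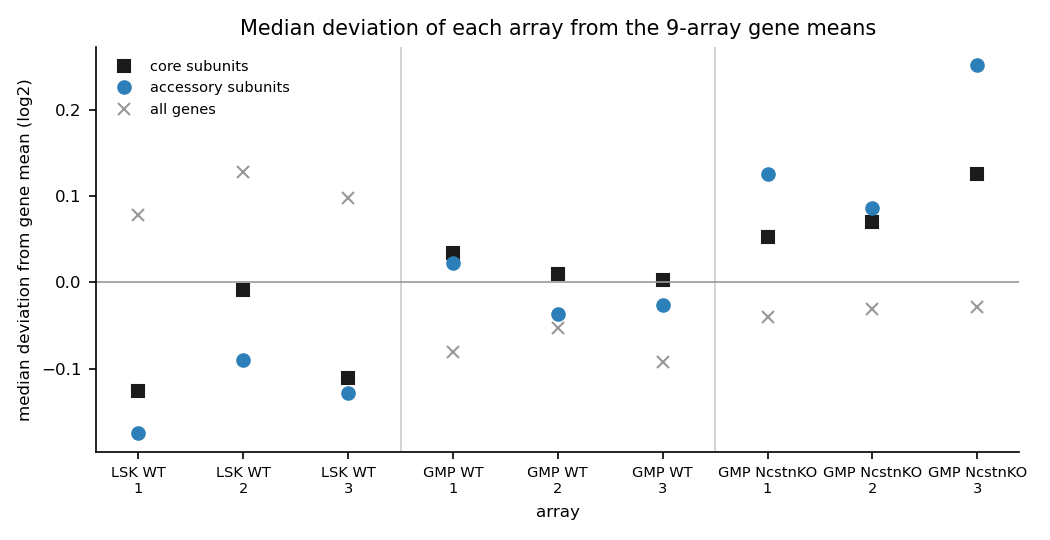
Median log2 deviation from the 9-array mean of each gene (y axis) for each array (x axis), over 21 core subunits (squares), 52 accessory subunits (circles) and all 18193 genes (crosses). Accessory subunits lie lowest in LSK 1 (-0.17) and highest in NcstnKO GMP 3 (0.25), and all genes lie above 0 in LSK and below 0 in GMP.

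By array, the median deviation of the 90 members from the 9-array gene means was -0.15, -0.05 and -0.11 in LSK, 0.02, -0.02 and -0.03 in WT GMP, and 0.09, 0.08 and 0.20 in NcstnKO GMP. NcstnKO GMP 3 was the highest array, and the groups did not overlap. All genes moved the other way between LSK and GMP, from 0.08, 0.13 and 0.10 in LSK to between -0.09 and -0.03 in the GMP arrays. Without NcstnKO GMP 3, the members' median difference between the GMP genotypes was 0.10 in place of 0.14.

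The count of members read differently under other scalings. When the arrays were quantile normalized, 15 members rose in WT GMP against LSK. The median of all genes was then 0.05 and that of the members 0.12. When each array was centred on its 75th percentile, 76 members rose (84.4%), against 32.7% of all genes, and the median of all genes was 0.17. The corresponding shares for NcstnKO GMP against LSK were 48.9% against 29.9% and 88.9% against 43.7%. In NcstnKO against WT GMP they were 4.44% against 2.14% and 11.1% against 3.41%. All 11 members called higher in WT GMP against LSK kept their sign under both scalings.

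**Figure D4:**
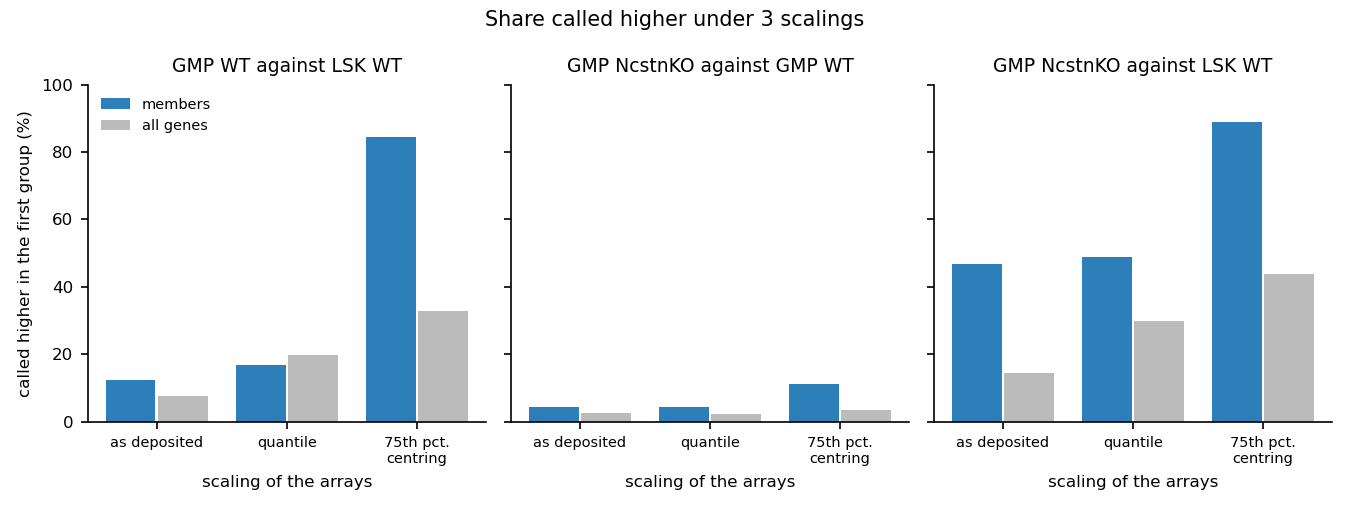
Percent called higher at adjusted p under 0.05 (y axis, bars from 0) among the 90 members (blue) and all 18193 genes (grey) with the arrays as deposited, quantile normalized and centred on the 75th percentile. In GMP WT against LSK WT the members' share is 12.2% against 7.48% as deposited and 16.7% against 19.8% after quantile normalization.

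The arrays that went against their sex label bear on both comparisons with LSK. Without these 4 arrays, 1 WT GMP and 1 NcstnKO GMP array are left, and their spread is taken from the LSK arrays. The medians of the members were then 0.10 in WT GMP against LSK and 0.19 in NcstnKO GMP against LSK. Those of all genes were -0.18 and -0.14. With the sex read from transcripts as a term, 10 members rose and 2 fell in WT GMP against LSK (11.1% and 2.22%, against 7.01% and 29.7% of all genes). In NcstnKO GMP against LSK 31 rose and 1 fell (34.4% and 1.11%, against 10.8% and 25.6%). With the Actb ratio as a term 6 rose and 1 fell in the first of these (all genes 4.36% and 21.5%). In the second 31 rose and 1 fell (all genes 11.2% and 27.7%). Without LSK 1, LSK 2 or any 1 of the WT GMP arrays, between 6 and 7 members rose in WT GMP against LSK. This is 6.67% to 7.78%, against 4.97% to 6.17% of all genes.

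Isoforms known mainly from other tissues gave few changes on the deposited scale. Of the 8 (Cox4i2, Cox6a2, Cox6b2, Cox7a1, Cox7b2, Cox8b, Cox8c and Ndufa4l2), 0 rose in any comparison by limma, 1 at an unadjusted p under 0.05 (Cox7a1 in NcstnKO against WT GMP). Their median in WT GMP against LSK was -0.17, and 0.16 with quantile normalization, when 1 of the 8 rose. Cox7a1 and Cox8b were the falls described above. Cox7b2, a testis isoform, was at background in every group, at 2.73 to 2.98. Cox4i2, an isoform of lung that responds to low oxygen, was at 6.38 to 7.16, and Cox6a2, the muscle isoform, at 7.39 to 8.72, and in each the 3 groups overlapped. Cox8c, at 4.84 to 5.61, and Ndufa4l2, at 5.77 to 6.06, also overlapped. Cox6b2, known as the testis isoform, was bright in all arrays, at 12.10 to 12.34, with differences no larger than 0.07 in size. Ndufb4 was also at background in every group on its only probe set of 1 symbol.

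On the deposited scale 45 members had no call in any comparison, among them core subunits of complexes I, II, III and V. The matching share of all genes was not counted. With 75th-percentile centring 76 of the 90 members rose in WT GMP against LSK and 80 in NcstnKO GMP against LSK, so the list depends on the scaling. In complex I the members without a call were Ndufs1, Ndufs3, Ndufs7, Ndufs8, Ndufv1, Ndufv3, Ndufa9, Ndufa10, Ndufa12, Ndufa13, Ndufab1, Ndufb4, Ndufb5, Ndufb11, Ndufaf1, Ndufaf2, Ndufaf3 and Ndufaf7. In complexes II and III they were Sdha, Sdhb, Sdhc, Uqcrc1 and Uqcrb. In complex IV they were Cox6a1, Cox7a2, Cox7c, Cox8a and 6 of the tissue isoforms. In ATP synthase they were Atp5a1, Atp5b, Atp5c1, Atp5d, Atp5g1, Atp5g2, Atp5g3, Atp5h, Atp5j, Atp5j2, Atp5o and Atp5pb.

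Other probe sets of the members were mostly of the same sign where they were of like brightness. There were 89 others, for 51 genes, and 47 of these lay within 1 log2 unit of the brightest. Of the 47, 38 had the sign of the brightest in WT GMP against LSK, 39 in NcstnKO against WT GMP and 39 in NcstnKO GMP against LSK. Called values of opposite sign came from 6 dimmer probe sets in WT GMP against LSK (of Atp5c1, Atp5g1, Ndufab1, Ndufc2, Ndufs8 and Uqcrq, with means of 5.39 to 8.27), from 0 in NcstnKO against WT GMP, and from 5 in NcstnKO GMP against LSK (of Atp5c1, Atp5g1, Atp5g2 and Ndufab1). A dim Ndufa12 probe set, with a mean of 6.64, differed by -2.57 ± 0.58 in WT GMP against LSK, while the brightest differed by -0.06.

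Promoters of members that rose are shown because respiratory chain genes are known to share binding motifs for NRF1, for ETS-family factors such as GABP and for YY1 near their starts. RefSeq (GRCm38.p6) gave windows of 300 bases, 250 of them before the start, for 74 of the 90 members, 79 windows in all. Each motif was searched on both strands. The NRF1 motif GCATGCGC was found in 11 member windows (13.9%, against 2.71% of 32851 windows of all genes). With GC in front of it, which makes the full NRF1 palindrome, it was found in 6 of these (7.59%, against 0.971%). The ETS motif CCGGAAG was found in 19 (24.1%, against 8.86%) and the YY1 motif AAGATGGCG in 7 (8.86%, against 1.40%). Capitals below mark any of these motifs on either strand, and each sequence is written 5′ to 3′ on the strand of its gene.
Uqcr11, chr10:80406818-80406921, minus strand, from 100 bases before the start to 4 bases after it: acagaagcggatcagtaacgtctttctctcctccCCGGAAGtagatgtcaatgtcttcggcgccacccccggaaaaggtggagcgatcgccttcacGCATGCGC
Ndufaf8, chr11:120098834-120098933, plus strand, the 100 bases before the start: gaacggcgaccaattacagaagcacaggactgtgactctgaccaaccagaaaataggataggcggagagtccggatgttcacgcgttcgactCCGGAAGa
Atp5k, chr5:108434400-108434499, minus strand, the 100 bases before the start: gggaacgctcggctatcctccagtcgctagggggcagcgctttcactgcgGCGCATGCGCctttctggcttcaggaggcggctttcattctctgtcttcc
Sdhd, chr9:50603850-50603949, minus strand, the 100 bases before the start: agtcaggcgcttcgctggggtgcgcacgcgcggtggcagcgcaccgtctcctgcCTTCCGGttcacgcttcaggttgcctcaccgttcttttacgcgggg
Cox6a1, chr5:115348959-115349128, minus strand, the 170 bases before the start: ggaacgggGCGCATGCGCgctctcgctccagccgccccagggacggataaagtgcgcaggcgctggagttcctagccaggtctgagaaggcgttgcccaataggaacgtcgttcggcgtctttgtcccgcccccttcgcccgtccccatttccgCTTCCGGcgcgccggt

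Uqcr11 has an ETS motif that begins 66 bases before its start and an NRF1 motif at the start itself. Ndufaf8 has an ETS motif 8 bases before its start, Atp5k the NRF1 palindrome 50 bases before it and Sdhd an ETS motif, read on the other strand, 46 bases before it. Beyond the stretches shown, the window of Ndufaf8 also holds a YY1 motif 10 bases after the start. That of Atp5k holds an ETS motif 12 bases after the start. Cox6a1, shown as a contrast, has the NRF1 palindrome and an ETS motif and was called in no comparison, with differences of -0.03, -0.07 and -0.11. Of the 19 members with an ETS motif 11 were called higher in NcstnKO GMP against LSK, and 23 of the 55 without one. For the NRF1 motif without the added GC these counts were 7 of 11 and 27 of 63, and for the YY1 motif 3 of 7 and 31 of 67. A motif is a match of letters in the window and not a measured binding site.

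Genes that work with the respiratory chain were counted in the same fit, to be read against the same shares of all genes. The mitochondrial ribosome, which makes the subunits encoded in mitochondrial DNA, had 76 measured genes. In WT GMP against LSK 8 of these rose and 1 fell, in NcstnKO against WT GMP 6 rose and 0 fell (29 at an unadjusted p under 0.05 in either direction), and in NcstnKO GMP against LSK 40 rose (52.6%) and 2 fell. Its median differences were 0.10, 0.22 and 0.33. Like the 4 members, the 6 calls between the GMP groups numbered 0 in the fit of these groups alone, with the replicate block, with either sex term, without the arrays against their sex label and with the Actb term, and also without WT GMP 3, NcstnKO 1 or NcstnKO 3. The counts over all genes also fell in these settings, to 0 higher with either sex term or the Actb term, which bears on the lists below too. Among the genes with the smallest p in NcstnKO against WT GMP, Mrpl14 rose by 0.69 ± 0.13 (adjusted p = 0.0274), Mrpl28 by 0.61 ± 0.12 (adjusted p = 0.0334), Mrpl57 by 0.60 ± 0.11 (adjusted p = 0.026) and Mrps35 by 0.51 ± 0.10 (adjusted p = 0.0338).

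Assembly factors outside the Nduf family changed in part. Of 16 measured complex IV assembly factors and copper chaperones, 3 rose in NcstnKO against WT GMP. These were Cox16 (0.89 ± 0.13, adjusted p = 0.0194), Pet100 (0.81 ± 0.11, adjusted p = 0.0191) and Cox11, which carries copper to the complex (0.67 ± 0.15, adjusted p = 0.0432). These calls numbered 2 with the replicate block and 0 in the fit of the GMP groups alone, with either sex term, with the Actb term, without the arrays against their sex label and without WT GMP 3. They numbered 1 with the mean of probe sets or without NcstnKO 3. In WT GMP against LSK, 1 of the 16 rose, Cox10, which makes haem A precursor (0.35 ± 0.11, adjusted p = 0.0299), and 1 fell, the copper chaperone Sco2 (-0.50 ± 0.11, adjusted p = 0.00726). The count of rises was 0 without LSK 1, LSK 3, WT GMP 1 or WT GMP 2. Between NcstnKO GMP and LSK 5 rose and 1 fell. Sdhaf1, which helps insert iron-sulfur clusters into Sdhb, rose in all 3 comparisons, by 0.31 ± 0.10, 0.53 ± 0.10 and 0.84 ± 0.10, and was the only one of 10 complex I and II factors called in the first 2. In WT GMP against LSK the list had 0 calls with the replicate block, labelled sex, the Actb term, trend and robust variances or the arrays against their label left out, and without LSK 1, LSK 3 or any WT GMP array. In NcstnKO against WT GMP it had 0 in the fit of these groups alone, with the block, either sex term or the Actb term, without the arrays against their label, and without any WT GMP array, NcstnKO 1 or NcstnKO 3. Of these 10, 4 rose in NcstnKO GMP against LSK, among them Foxred1 (0.45 ± 0.09, adjusted p = 0.00288).

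Of 8 genes of cytochrome c and complex III assembly, Cycs, the somatic cytochrome c, rose in WT GMP against LSK (0.62 ± 0.09, adjusted p = 0.00101) and Ttc19 fell (-0.48 ± 0.15, adjusted p = 0.0386). The list had 0 falls without LSK 2, WT GMP 1 or WT GMP 2. In NcstnKO against WT GMP the assembly factors Uqcc2 and Uqcc3 rose, by 0.55 ± 0.10 (adjusted p = 0.0271) and 0.43 ± 0.09 (adjusted p = 0.0366). Both calls were lost in the same settings and without the same arrays as that of Sdhaf1 between the GMP groups, and the list had 1 call without LSK 1 or NcstnKO 2. Between NcstnKO GMP and LSK 4 of the 8 rose and 1 fell. Of 4 genes for the ATP synthase inhibitor and assembly, Atpaf2 alone was called, in NcstnKO GMP against LSK (0.73 ± 0.19, adjusted p = 0.0128).

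Other mitochondrial lists had few calls on the deposited scale, and with 75th-percentile centring 6 of 6 carriers, 13 of 14 TCA cycle genes and 12 of 15 import and cristae genes rose in WT GMP against LSK. The 6 carriers and channels of adenine nucleotides and phosphate (Slc25a and Vdac genes) had 0 calls by limma and 0 unadjusted p under 0.05 in all 3 comparisons. The 14 TCA cycle genes had 0 calls in WT GMP against LSK and in NcstnKO against WT GMP, with 2 unadjusted p under 0.05 in each. Between NcstnKO GMP and LSK Sucla2 (0.43 ± 0.10) and Pdhb (0.42 ± 0.10) rose and Idh3b fell (-0.42 ± 0.12). The 15 genes of protein import and cristae had 1 call in WT GMP against LSK, Tomm40 (-1.12 ± 0.35, adjusted p = 0.0352), and 0 in NcstnKO against WT GMP, with 5 unadjusted p under 0.05. In NcstnKO GMP against LSK 4 rose and 2 fell.

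Of 16 measured regulators of mitochondrial DNA and biogenesis, 0 rose and 4 fell in WT GMP against LSK, where 30.5% of all genes fell. Their median difference of -0.15 was close to the -0.18 of all genes. Of the 16, 1 rose and 2 fell with quantile normalization and 4 rose and 1 fell with centring. The 4 that fell on the deposited scale kept their sign under both. Of the 16, 1 was at background in WT GMP and 1 in NcstnKO GMP, against 0 in LSK. Ppargc1a, the coactivator PGC-1alpha, fell by 2.73 ± 0.18 (adjusted p = 3.34e-05), Gabpb1, a subunit of GABP, by 0.57 ± 0.09 (adjusted p = 0.00161), Nrf1 by 0.58 ± 0.20 (adjusted p = 0.0454) and Tfam, the mitochondrial DNA packaging factor, by 0.40 ± 0.11 (adjusted p = 0.0246). In NcstnKO against WT GMP 0 were called by limma and 6 had an unadjusted p under 0.05. In NcstnKO GMP against LSK 4 fell, among them Gabpa (-0.57 ± 0.11, adjusted p = 0.0034), and 2 rose, among them the nuclear receptor Esrra (0.61 ± 0.12, adjusted p = 0.00405).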

How the data were processed

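Messenger RNA of sorted cells was measured on 9 Affymetrix arrays, 3 per group. Per the labels' protocols, 5 ng of total RNA was amplified and biotinylated. The authors deposited linear-scale intensities of 45101 probe sets. RMA (background correction, quantile normalization and probe summary) is named in the submitters' processing notes, and its version and whether the 9 arrays were processed as 1 set are not given in the sources used here. Intensities ran from 3.79 to 23176, and their log2 was taken.

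GEO's platform annotation gave 34945 probe sets 1 symbol, 932 several and 9160 none, and 64 were controls. The brightest probe set of each symbol gave 18193 genes. The fit by limma 3.58.1 under R 4.3.3, with moderated 2-sided tests from lmFit and eBayes, was made to 3 group means over all 9 arrays. Its use was checked on simulated data. Background means that every array of a group, or the group mean, does not exceed the 95th percentile of 27 unspiked control sets. Precision is limited by the number of arrays, and the median SD within a group was 0.123 to 0.151.

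Named genes are the core subunits, the 8 highest and 8 lowest members of each comparison, members called between the GMP groups or against the majority, tissue isoforms, assembly factors, members whose probe sets disagree, and up to 4 genes of each other list by p. Members and lists were chosen with earlier results of these data known. Intensity bands and the promoters shown were chosen after the values were seen.

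Same-numbered LSK and WT GMP arrays deviated together (correlations of 0.219, 0.238 and 0.291 over genes). The main fit does not use this pairing, and the replicate number entered only as a block in an alternative fit. The numbers of the NcstnKO arrays showed no such pairing. Alternatives were 2 other scalings, a filter on the dimmest 40% of genes, the mean of all probe sets, fits of each pair of groups, replicate, sex and Actb terms, trend and robust variances, and leaving out arrays.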

Additional observations from a re-analysis of the deposited data

How the results depend on the processing

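Of 5382 gene values recomputed under the alternatives, 267 were no longer called and 191 were newly called. A change of direction was counted only for values called in the main fit, and 1 occurred. It was Uqcrq in WT GMP against LSK, at -0.207 with the mean of all probe sets (adjusted p = 0.342), because its dimmer probe sets were lower. Members called higher in WT GMP against LSK numbered 11, and 76 with 75th-percentile centring, 22 with trend and robust variances and 6 with the Actb term. Leaving out 1 array gave 6 to 11. The 3 called lower became 1 with quantile normalization, centring, the Actb term or the filter on dim genes (which removes the dim isoforms). They became 6 with the mean of probe sets and 1 to 4 without 1 array. The median was 0.44 with centring and 0.06 to 0.12 without 1 array. With the replicate block the counts were 8 and 2.

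In NcstnKO against WT GMP the 4 rises became 10 with centring, 11 without the dimmest 40%, which tests fewer genes, 17 with trend and robust variances (then 1 fell, Sdha) and 0 in the fit of the 2 groups alone, with either sex term, without the arrays against their sex label and with the Actb term. Over all genes the rises numbered 0 with either sex term or the Actb term and 1 in the fit of the 2 groups alone. Leaving out 1 array gave 0 to 6 members called higher. The median was 0.0845 with labelled sex as a term, 0.0754 without the arrays against their label and 0.099 to 0.167 without 1 array. NcstnKO arrays share only a number with the others, and with the replicate block 0 members were called here and 37 rose in NcstnKO GMP against LSK. Of the NcstnKO arrays, 1 of 3 correlated best with its own number in WT GMP.

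In NcstnKO GMP against LSK the 42 rises became 80 with centring, 5 without the arrays against their sex label and 31 to 40 without 1 array. The 1 fall became 0 with quantile normalization, centring or the filter on dim genes, 4 with the mean of probe sets or trend and robust variances, and 1 to 2 without 1 array. The median was 0.27 with quantile normalization, 0.595 with centring and 0.19 to 0.24 without 1 array. Except where a reason is given, the cause was not tested. Cox7b2 and Ndufb4 were at background and have no measured change.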
